A study of Homo sapiens with 8 samples.

Results

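Homologous recombination and Fanconi genes, here 41 genes of DNA damage signalling, break repair by recombination and interstrand crosslink repair, were chosen by symbol from the 56638 gene symbols of the count tables, and all 41 were present in both tables and passed the filter on low counts in every comparison. RNA-seq read counts were analysed in SCC25, an established line of head and neck squamous cell carcinoma (HNSCC), after loss of the transcription factor ETS1 by 2 routes. A pool of siRNAs against ETS1 was compared with a non-targeting siRNA in transfected cells, and a stable lentiviral hairpin, shETS1, was compared with a control hairpin, shCON, in puromycin-selected cells, with 2 libraries in each of the 4 groups and 8 in all. All cells carried the SCC25 background and were grown in the same medium with serum and hydrocortisone, the siRNA groups had no stable transgene, and shETS1 was a single hairpin construct, so that an effect of ETS1 loss and one of that hairpin cannot be told apart. The study's methods call the siRNA samples biological replicates, and neither they nor the labels say whether the shRNA libraries came from separate cultures, so that p-values there measure only the spread between these samples.

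Homologous recombination copies lost sequence from an intact sister chromatid. Broken ends are sensed and trimmed to single-stranded DNA, the BRCA proteins and their partners prepare that strand for exchange, accessory factors help it invade its partner, and the joined molecules are then dissolved or cut. The Fanconi core complex attaches ubiquitin to the FANCD2-FANCI pair at crosslinked or stalled forks, and the kinases ATM and ATR signal the damage. Many of these genes are expressed mainly in cells that replicate their DNA.

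The promoters of several members hold words bound by E2F factors, which drive genes of DNA synthesis, and by ETS factors, the family of ETS1. Whether these words have a part in the changes below was not tested. RefSeq sequence on GRCh38.p14 from 250 bases before to 50 bases after the gene start was at hand for 36 of the 41 members, in 47 windows, as some genes have several starts. The first set holds examples of members that fell in shETS1 cells and carry an E2F word. Of the members with a window, 8 of the 27 that fell carried one and 0 of the 9 others did. These examples were picked with the calls known. The windows were chr3:10026187-10026486 on the plus strand for FANCD2, chr1:35769929-35770228 on the minus strand for CLSPN, chr7:152676092-152676391 on the minus strand for XRCC2 and chr3:133661892-133662191 on the minus strand for TOPBP1. Capitals mark matches on either strand to an E2F word (TTTCCCGC, TTTGGCGC, TTTGCCGC or TTTCGCGC), to the ETS word CCGGAAGT or to its core CCGGAA.
FANCD2 promoter: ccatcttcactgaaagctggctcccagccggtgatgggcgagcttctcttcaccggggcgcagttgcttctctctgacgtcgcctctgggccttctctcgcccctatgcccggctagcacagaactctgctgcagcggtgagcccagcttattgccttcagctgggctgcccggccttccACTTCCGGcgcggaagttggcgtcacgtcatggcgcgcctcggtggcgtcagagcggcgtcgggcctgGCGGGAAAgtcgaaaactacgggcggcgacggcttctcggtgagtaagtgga
CLSPN promoter: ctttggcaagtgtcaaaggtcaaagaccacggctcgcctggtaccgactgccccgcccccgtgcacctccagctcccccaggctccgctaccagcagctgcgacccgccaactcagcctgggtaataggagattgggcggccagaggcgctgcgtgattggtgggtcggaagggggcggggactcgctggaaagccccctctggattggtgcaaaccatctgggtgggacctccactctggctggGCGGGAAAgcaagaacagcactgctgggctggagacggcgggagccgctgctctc
XRCC2 promoter: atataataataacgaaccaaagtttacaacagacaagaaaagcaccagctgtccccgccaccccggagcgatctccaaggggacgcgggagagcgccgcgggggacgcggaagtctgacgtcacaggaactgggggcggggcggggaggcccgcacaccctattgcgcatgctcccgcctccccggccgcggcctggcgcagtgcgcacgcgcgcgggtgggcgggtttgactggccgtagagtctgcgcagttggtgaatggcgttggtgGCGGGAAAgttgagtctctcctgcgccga
TOPBP1 promoter: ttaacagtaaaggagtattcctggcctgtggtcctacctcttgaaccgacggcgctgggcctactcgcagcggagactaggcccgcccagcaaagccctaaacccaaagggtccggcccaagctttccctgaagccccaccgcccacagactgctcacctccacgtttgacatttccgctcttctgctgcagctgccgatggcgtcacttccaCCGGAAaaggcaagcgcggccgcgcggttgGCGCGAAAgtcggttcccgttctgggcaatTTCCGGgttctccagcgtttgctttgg

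The second set holds the DNA end-binding subunits RAD50 and MRE11A, whose promoters carry the ETS word. Neither gene was called in any comparison, and both were picked with the calls known. The ETS word was present in 4 of the 27 members with a window that fell and in 2 of the 9 others. The windows were chr5:132556727-132557026 on the plus strand for RAD50 and chr11:94493795-94494094 on the minus strand for MRE11A, with capitals as above.
RAD50 promoter: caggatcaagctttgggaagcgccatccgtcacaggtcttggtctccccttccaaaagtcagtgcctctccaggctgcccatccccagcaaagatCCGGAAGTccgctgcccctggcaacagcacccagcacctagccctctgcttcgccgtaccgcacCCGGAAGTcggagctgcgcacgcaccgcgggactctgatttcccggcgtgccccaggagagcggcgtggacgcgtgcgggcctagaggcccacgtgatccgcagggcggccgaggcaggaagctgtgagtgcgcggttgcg
MRE11A promoter: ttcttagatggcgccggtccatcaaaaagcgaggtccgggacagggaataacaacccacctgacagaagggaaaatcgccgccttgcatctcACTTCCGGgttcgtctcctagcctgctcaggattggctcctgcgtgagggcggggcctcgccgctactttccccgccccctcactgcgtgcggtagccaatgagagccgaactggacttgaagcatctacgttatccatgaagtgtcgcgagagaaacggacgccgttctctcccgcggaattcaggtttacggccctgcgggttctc

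An E2F word was found in 8 of the 47 member windows (17%), against 3.31% of all 35116 windows of that length and 4.1% of the windows of protein-coding genes. It was present in 8 of the 27 members with a window that fell in shETS1 cells (CLSPN, EXO1, FANCA, FANCC, FANCD2, RMI1, TOPBP1 and XRCC2) and in 0 of the 9 that did not. The ETS word was found in 6 windows (12.8%, against 4.14% of all and 5.34% of protein-coding windows), in BRCA2, EME1, FANCD2 and PALB2, which fell, and in MRE11A and RAD50. The shorter ETS core, which every ETS word contains, was found in 13 windows (27.7%, against 17.2% of all and 21.2% of protein-coding windows), in 8 of the 27 members that fell and in 5 of the 9 that did not (ATM, FANCF, FANCM, MRE11A and RAD50). The CCAAT word of NF-Y was found in 25 windows (53.2%, against 34.6% of all and 34.7% of protein-coding windows). It was present in 15 of the 27 members that fell and in 5 of the 9 that did not. The CHR words TTTGAA or TTCGAA of cell cycle promoters were found in 4 windows (8.51%, against 16.4% of all and 13.7% of protein-coding windows). They were present in 3 of the 27 members that fell and in 1 of the 9 that did not. A match is a description of the letters and shows no binding.

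ETS1 itself checked the labels. Its level in CPM, the read count as a share of the scaled library size and scaled within each table, was 288 and 248 in the siRNA control libraries and 17.4 and 13.2 after ETS1 siRNA. In the stable lines ETS1 gave 82.2 and 72.0 CPM for the control hairpin and 9.75 and 11.0 CPM for shETS1. ETS1 fell by 4.13 on the log2 scale after siRNA (SE 0.19, edgeR quasi-likelihood test, adjusted p = 1.7e-04) and fell by 2.89 after shRNA (SE 0.10, adjusted p = 3.8e-13). Library totals ranged from 15954616 to 25953213 counts. The 8 squamous epithelial markers were detected in every group, and their sum was 15400 to 20100 CPM in the siRNA control, 23100 to 26900 CPM after ETS1 siRNA, 15500 to 15600 CPM with the control hairpin and 25300 to 25500 CPM with shETS1, where 7 of the 8 were called, 4 higher and 3 lower. The sum of the 6 fibroblast markers was 43.2 to 50.9 CPM in the siRNA libraries, 248 to 276 CPM in shCON and 1960 to 2070 CPM in shETS1, led by DCN and LUM. The leukocyte markers summed to at most 4.05 CPM in any library, with 3 of 5 at 0 in the siRNA groups, and the endothelial markers rose from at most 2.03 CPM in shCON to 24.0 CPM in shETS1 through KDR, with 2 of 4 at 0. The structural RNAs RN7SK, RN7SL1, RN7SL2, RPPH1 and RMRP, which lack a poly(A) tail, together took at most 0.00339% of the counts in the siRNA libraries. Their share was 5.61% and 6.63% with the control hairpin and 12.3% and 9.64% with shETS1. The part of these differences in the results below was not tested.

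Compared per kilobase of transcript, the members spanned a wide range of levels. In shCON, RBBP8, which starts end resection, stood at 79.8 and 84.9 CPM per kb and UBE2T, the ubiquitin-conjugating enzyme of the Fanconi core complex, at 66.8 and 74.2 CPM per kb. RAD54B, a motor protein of strand exchange, was among the lowest at 2.70 and 2.87 CPM per kb. In the siRNA control, the same 2 genes led, with 48.4 and 50.5 CPM per kb for RBBP8 and 47.4 and 54.3 CPM per kb for UBE2T, whose replicates overlapped, and RAD54B stood at 2.00 and 2.23 CPM per kb.

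The first comparison asked how the members changed after transient loss of ETS1 by siRNA. Of the 41 members, 1 was called at an adjusted p under 0.1 and it was higher, beside 3.41% of the 14742 genes tested (1.13% higher and 2.27% lower). The median log2 fold change of the members was -0.04, with a range from -0.48 to 1.05, against 0.00182 for all genes tested, and 18 members lay above 0 and 23 below. The replicates of the groups did not overlap for 22 members, 12 lower and 10 higher after ETS1 siRNA, where 51.9% of all genes tested did not overlap. The SE of a member had a median of 0.15 and reached 0.24. With a library left out the median of the members ranged from -0.09 to -0.01, and the share of all genes tested that was called ranged from 0.476% without siRNA control replicate 1 to 9.61% without ETS1 siRNA replicate 1.

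The called member was RMI2 (chr16:11343476-11475519, plus strand, GRCh37), a small subunit of the complex that dissolves joined DNA molecules with the BLM helicase. Its counts were 184 and 246 in the siRNA control and 478 and 467 after ETS1 siRNA, which is 9.26 and 15.3 CPM against 27.8 and 23.0 CPM. Both knockdown libraries were above both controls, although the control libraries differed from each other by more than the knockdown libraries did. RMI2 rose by 1.05 on the log2 scale (SE 0.23, edgeR adjusted p = 0.0846), and without siRNA control replicate 1 the rise was 0.73 and was not called (edgeR adjusted p = 0.403).

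Among the genes that signal damage, ATR, the kinase that responds to single-stranded DNA, gave 57.5 and 53.7 CPM in the control and 45.9 and 34.0 CPM after ETS1 siRNA. The groups did not overlap, and the log2 fold change of -0.48 was not called (SE 0.16, edgeR adjusted p = 0.172). CHEK1, the kinase that ATR activates, gave 76.2 and 73.2 CPM against 59.5 and 64.3 CPM, and was not called either (log2 fold change -0.27, SE 0.12, edgeR adjusted p = 0.270). Outside that group NBN, a subunit of the break sensor, gave 95.2 and 87.6 CPM against 71.0 and 71.4 CPM, with a log2 fold change of -0.36 (SE 0.12, edgeR adjusted p = 0.189). In the other direction FANCE, the core subunit that contacts FANCD2, gave 19.4 and 22.4 CPM against 31.6 and 26.3 CPM, with a log2 fold change of 0.47 (SE 0.16, edgeR adjusted p = 0.178). These genes, with FANCG and RMI2, were the 6 members with an unadjusted p under 0.05, where 2721 of the 14742 genes tested had one.

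The members best known from hereditary cancer were not called after siRNA. BRCA1, which promotes end resection, gave 45.4 and 44.6 CPM in the control and 49.0 and 41.8 CPM after ETS1 siRNA, with overlapping groups and a log2 fold change of 0.01 (SE 0.13). BRCA2, which acts at the step before strand exchange, gave 26.5 and 27.5 CPM against 29.9 and 17.1 CPM, so that the knockdown libraries lay on both sides of the controls (log2 fold change -0.21, SE 0.24). FANCD2 gave 36.9 and 38.7 CPM against 38.9 and 34.4 CPM, and TIMELESS, a fork protection factor, 92.6 and 105 CPM against 105 and 93.4 CPM, each with overlapping groups.

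Across the 41 members the siRNA fold change was lower for longer transcripts (Pearson r -0.52, Spearman rho -0.51, across genes that share the same libraries). The same relation over 13557 genes had r -0.27 and rho -0.32. Of the long members, BRCA2 gave 29.9 and 17.1 CPM after ETS1 siRNA against 26.5 and 27.5 CPM in the control. CLSPN gave 49.0 and 36.6 CPM against 45.8 and 43.9 CPM. Both lay below the controls only in ETS1 siRNA replicate 2, while ATM, ATR and BRIP1 did so in both libraries. The part of single libraries in the relation was not tested. In shETS1 cells r was 0.02 across the members. With an offset for transcript length the median of the members after siRNA turned from -0.04 to 0.01 and RMI2 was no longer called (edgeR adjusted p = 0.117).

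The second comparison asked the same of the stable hairpin. In shETS1 cells 35 of the 41 members were called, 31 lower and 4 higher, beside 60.6% of the 16481 genes tested (30.9% lower and 29.7% higher). The share of members called lower was 75.6%, and 13 members were called at least 2-fold lower, as were 1282 of the 16481 genes tested. The median log2 fold change was -0.71, with a range from -1.75 to 0.49, against 6.6e-04 for all genes tested. The groups did not overlap for 36 members, 31 lower and 5 higher, where 76.6% of all genes tested did not overlap. In bulk RNA, fewer cells that express these genes and less RNA per cell cannot be told apart. The 20 proliferation genes moved with the members, with 19 lower and a summed level of 3900 and 3910 CPM in shCON against 1960 and 2000 CPM in shETS1; their part in the result was not tested.

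**Figure D1:**
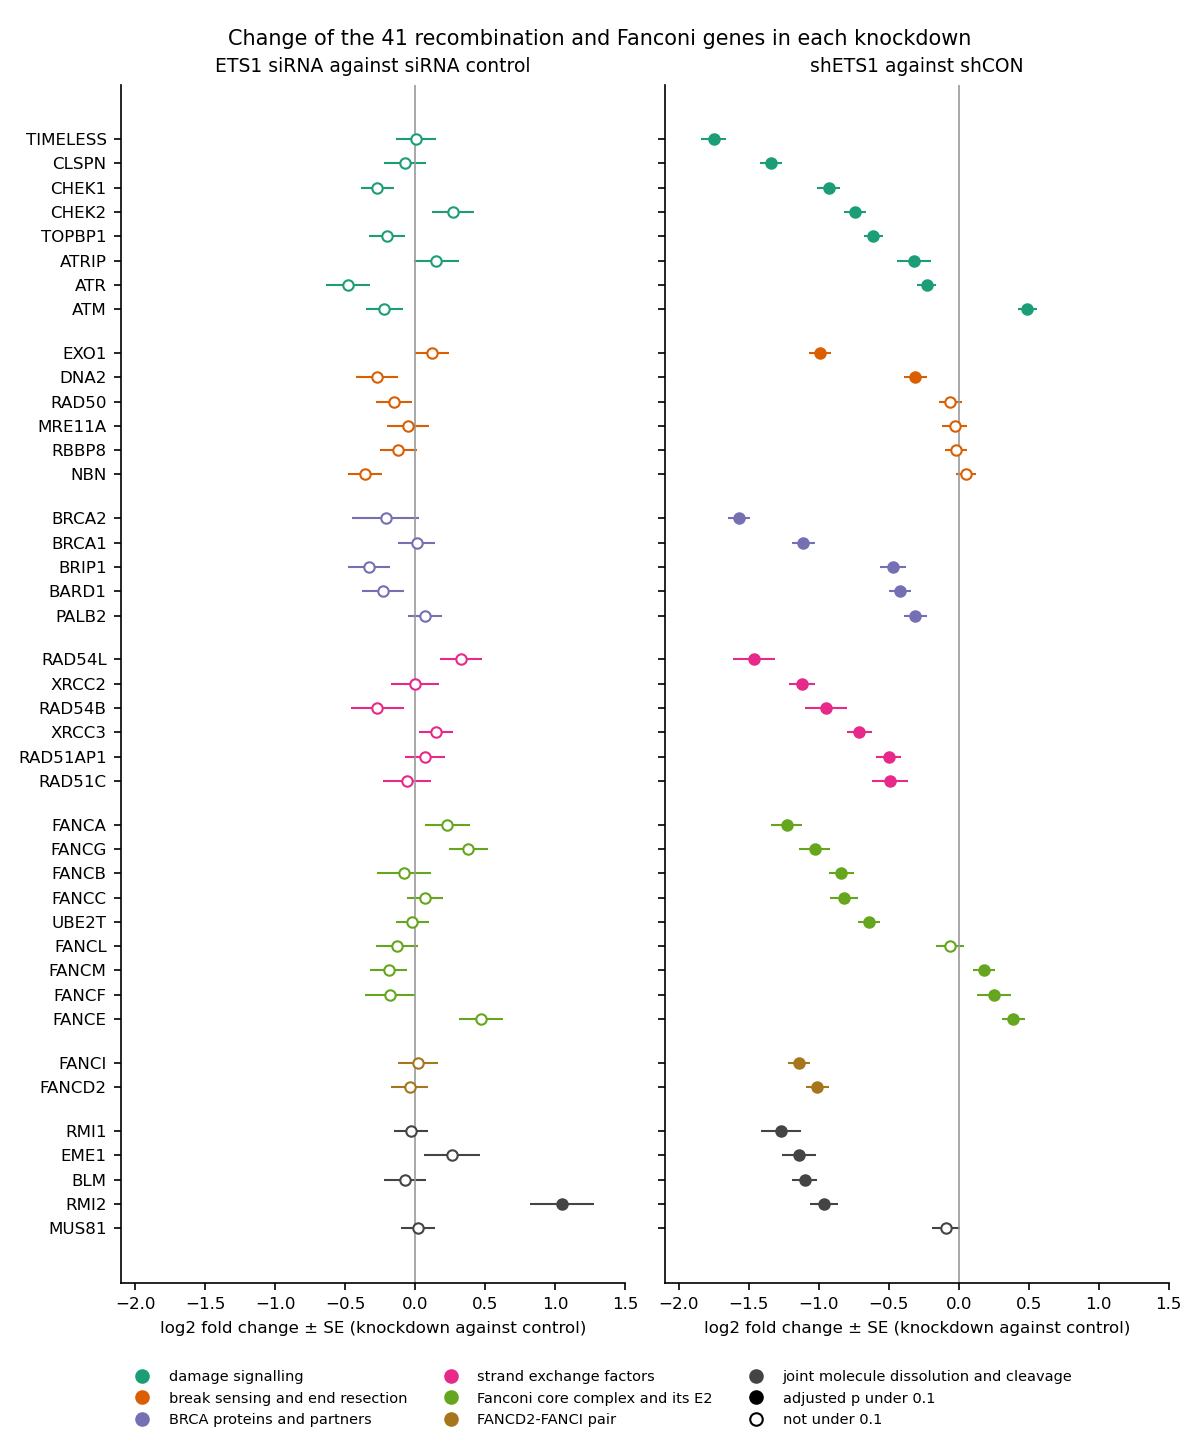
Log2 fold change with its SE for each of the 41 members, grouped by role, after ETS1 siRNA (left) and in shETS1 cells (right), with filled points for an adjusted p under 0.1. On the left 1 point is filled, RMI2 at 1.05, and on the right 35 are filled, from TIMELESS at -1.75 to ATM at 0.49.

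In the damage signalling group all 8 genes were called in shETS1 cells, 7 lower and 1 higher, with a median of -0.67. TIMELESS (chr12:56810147-56843210, minus strand, GRCh37) showed the largest fall of all members, from 57.2 and 56.2 CPM to 16.4 and 17.4 CPM, a log2 fold change of -1.75 (SE 0.09, edgeR adjusted p = 3.5e-11), or 29.8% of the control. CHEK1 went from 2390 and 2583 counts to 1149 and 1308 counts, and fell by 0.93 on the log2 scale (SE 0.08, edgeR adjusted p = 1.5e-08). ATR fell less, from 132 and 135 CPM to 111 and 116 CPM (log2 fold change -0.23, SE 0.07, edgeR adjusted p = 0.0108), and was not called with the length offset (edgeR adjusted p = 0.106). ATM, the kinase that responds to double-strand breaks, was the exception: it rose from 92.4 and 96.9 CPM to 130 and 135 CPM, a log2 fold change of 0.49 (SE 0.07, edgeR adjusted p = 2.1e-05). The shETS1 libraries lay wholly below shCON for TIMELESS, CHEK1 and ATR, and wholly above it for ATM. ATRIP, the partner of ATR, changed by -0.32 (SE 0.12, edgeR adjusted p = 0.0323), and was not called without shCON replicate 2 (adjusted p = 0.167) or shETS1 replicate 2 (adjusted p = 0.192), by edgeR.

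The genes that sense breaks and trim their ends changed least, with 2 of 6 called, both lower, and a median of -0.04. The 3 subunits of the break sensor were not called: MRE11A, its nuclease, gave 24.0 and 25.1 CPM in shCON and 23.1 and 24.8 CPM in shETS1 (log2 fold change -0.03, SE 0.09). RAD50, which tethers the ends, gave 72.0 and 69.3 CPM against 64.0 and 71.9 CPM (log2 fold change -0.06, SE 0.08). NBN gave 126 and 130 CPM against 132 and 132 CPM (log2 fold change 0.05, SE 0.07). RBBP8 was not called either, at 261 and 278 CPM against 276 and 255 CPM (log2 fold change -0.02, SE 0.08). The groups overlapped for MRE11A, RAD50 and RBBP8 but not for NBN, and with library size as the only scaling RBBP8 was called lower (log2 fold change -0.15, edgeR adjusted p = 0.0823), where the median of all genes tested was itself -0.12. EXO1, a nuclease of long-range resection, fell from 79.5 and 82.2 CPM to 41.6 and 39.8 CPM (log2 fold change -0.99, SE 0.08, edgeR adjusted p = 9.6e-09), and DNA2, the nuclease and helicase of that step, changed by -0.31 (SE 0.08).

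All 5 BRCA proteins and partners were called lower, with a median of -0.47. BRCA2 (chr13:32889223-32974405, plus strand, GRCh37) fell from 93.3 and 89.1 CPM to 29.7 and 31.8 CPM, a log2 fold change of -1.57 (SE 0.08, edgeR adjusted p = 4.4e-11). BRCA1 fell from 184 and 179 CPM to 79.1 and 89.1 CPM, a log2 fold change of -1.11 (SE 0.08, edgeR adjusted p = 2.4e-09). Both genes stood well below shCON in each shETS1 library. The falls of BARD1, the partner of BRCA1, of PALB2, which joins BRCA1 to BRCA2, and of the helicase BRIP1 were smaller, between -0.47 and -0.31.

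All 6 strand exchange factors fell, with a median of -0.83. RAD54L, a DNA motor protein of strand exchange, fell from 8.98 and 9.58 CPM to 3.57 and 3.21 CPM, which is 226 and 249 counts against 82 and 81. Its log2 fold change was -1.46 (SE 0.15, edgeR adjusted p = 3.7e-07). XRCC2 followed at -1.12 and RAD54B at -0.95, and the smallest fall was that of RAD51C at -0.49 (SE 0.13). RAD54B shares exon sequence with FSBP on its strand, so that its counts are uncertain.

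The Fanconi core complex was divided. Of its 9 genes with UBE2T, 5 fell, 3 rose and FANCL was not called, and the median was -0.64. FANCA, a scaffold subunit, fell from 24.0 and 22.8 CPM to 9.36 and 10.6 CPM (log2 fold change -1.23, SE 0.11, edgeR adjusted p = 6.1e-08), and FANCG, its partner, by 1.03 on the log2 scale. FANCE rose from 34.7 and 35.6 CPM to 47.9 and 44.3 CPM (log2 fold change 0.39, SE 0.08, edgeR adjusted p = 6.7e-04). FANCF, an adaptor subunit, rose from 11.3 and 10.7 CPM to 13.2 and 13.1 CPM (log2 fold change 0.25, SE 0.12, edgeR adjusted p = 0.0723), and FANCM, the DNA translocase that anchors the complex, from 68.3 and 74.1 CPM to 77.8 and 83.3 CPM (log2 fold change 0.18, SE 0.08, edgeR adjusted p = 0.0621). FANCF was lost whichever of the 4 libraries was left out, and FANCM without shCON replicate 1 or shETS1 replicate 2. FANCF and FANCM were not called by DESeq2 (adjusted p = 0.237 and 0.143), nor without shCON replicate 1 (edgeR adjusted p = 0.158 and 0.447). FANCL, the ubiquitin ligase of the complex, gave 22.2 and 24.9 CPM against 23.9 and 21.3 CPM, with overlapping groups (log2 fold change -0.06, SE 0.10).

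The substrate pair of the core complex fell together. FANCD2 went from 66.2 and 66.4 CPM to 33.7 and 32.3 CPM (log2 fold change -1.01, SE 0.08, edgeR adjusted p = 1.1e-08). FANCI went from 98.1 and 100 CPM to 44.2 and 45.9 CPM (log2 fold change -1.14, SE 0.08, edgeR adjusted p = 1.2e-09). Neither pair of groups overlapped.

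Of the 5 genes that dissolve or cut joint molecules, 4 fell, with a median of -1.10. RMI1, the larger partner of RMI2, fell from 25.5 and 22.1 CPM to 8.18 and 11.5 CPM (log2 fold change -1.27, SE 0.14, edgeR adjusted p = 5.3e-07). BLM fell by 1.10 on the log2 scale and EME1, the partner of the nuclease MUS81, by 1.14. RMI2, which had risen after siRNA, fell from 23.6 and 24.6 CPM to 12.0 and 12.8 CPM (log2 fold change -0.96, SE 0.10, edgeR adjusted p = 5.4e-07). MUS81 was not called, at 28.0 and 25.1 CPM against 26.2 and 23.7 CPM (log2 fold change -0.09, SE 0.10), although with library size as the only scaling it was called lower (log2 fold change -0.22, edgeR adjusted p = 0.0877).

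**Figure D2:**
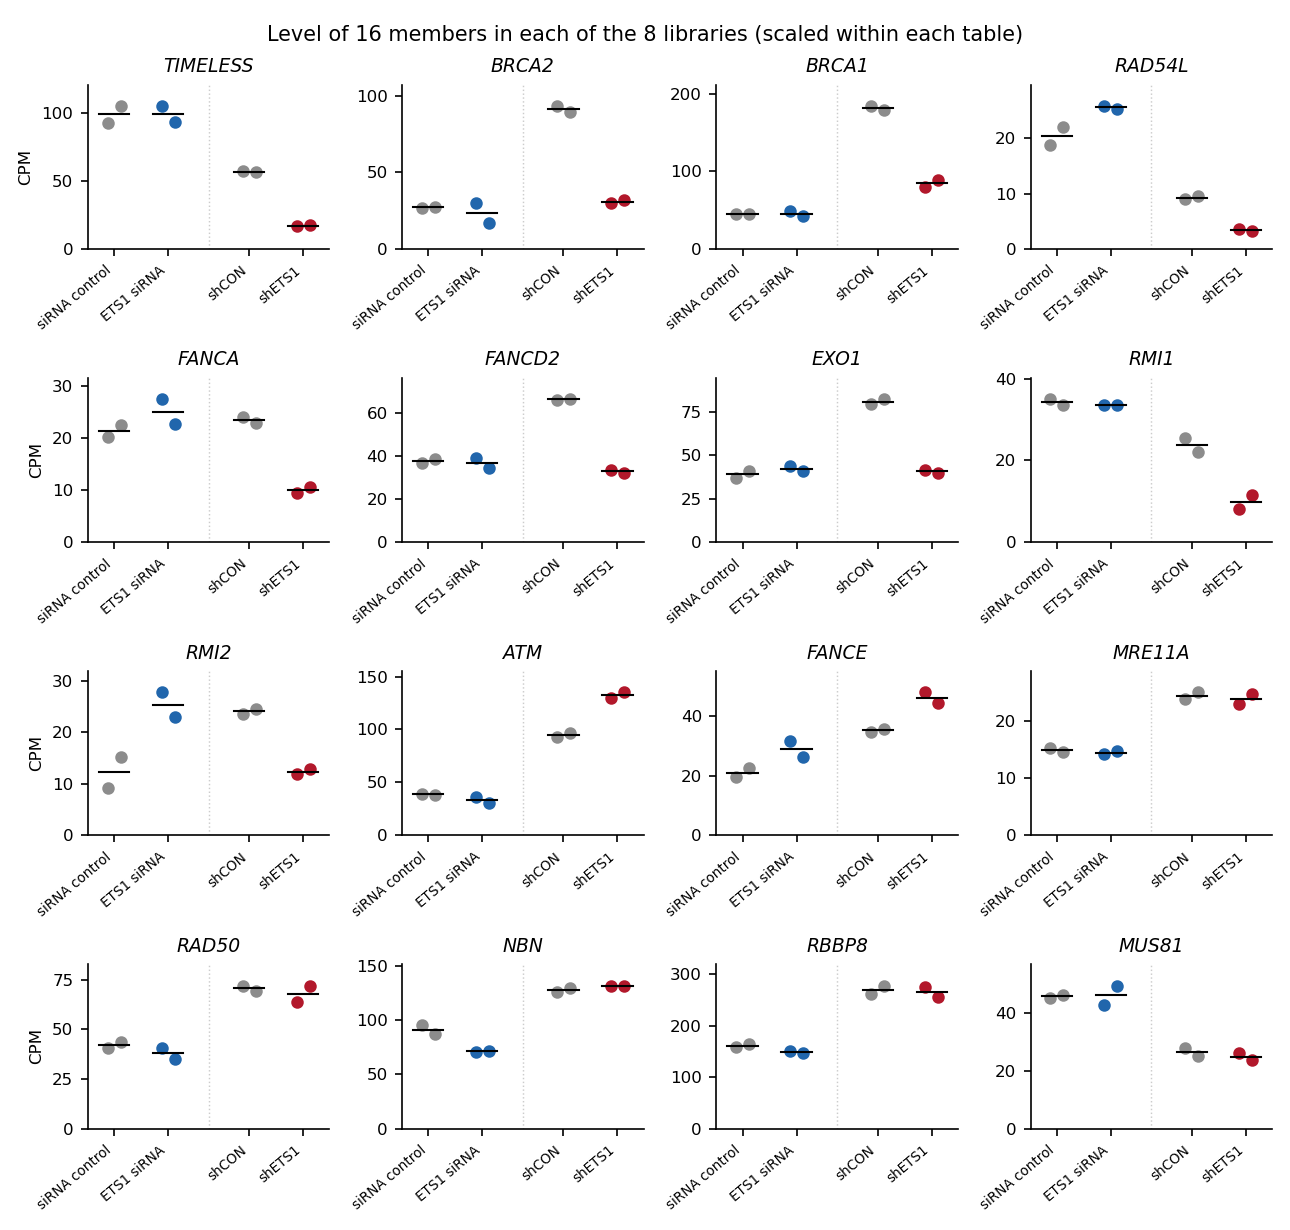
Level in CPM of 16 members in each of the 8 libraries, with a line at each group mean and a dotted line between the tables, which were scaled separately. The shETS1 points of TIMELESS, BRCA2, BRCA1, RAD54L, FANCA, FANCD2, EXO1, RMI1 and RMI2 lie below shCON. Those of ATM, FANCE and, by a small margin, NBN (not called) lie above it, and those of MRE11A, RAD50, RBBP8 and MUS81 overlap it.

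Several members share exon sequence with a neighbour, and with the use of strand not stated their counts are uncertain. On the same strand these were ATRIP with TREX1, CHEK1 with STT3A, RBBP8 with MIR4741 and RAD54B with FSBP. On the opposite strand they were ATM with C11orf65, MRE11A with AP000765.1, XRCC3 with KLC1, RAD54L with LRRC41, FANCA with ZNF276, FANCC with AOPEP, FANCF with GAS2, FANCL with VRK2, FANCD2 with FANCD2OS, FANCI with POLG, EME1 with LRRC59 and MUS81 with CFL1.

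Whether the members responded differently to the hairpin and to the siRNA was tested in a joint fit of the 8 libraries, by subtracting the siRNA change from the shRNA change. The 2 comparisons share no control samples. It was called for 29 of the 41 members, 26 lower and 3 higher, beside 34.8% of the 17190 genes tested (19.7% lower and 15.1% higher). The median over the members was -0.68, against -0.02 for all genes tested. The 3 lowest differences were those of RMI2 at -2.03 (SE 0.27, edgeR adjusted p = 4.7e-04), RAD54L at -1.81 (SE 0.19, edgeR adjusted p = 1.2e-04) and TIMELESS at -1.77 (SE 0.15, edgeR adjusted p = 4.6e-05). RMI2 was the member called in both knockdowns, and in opposite directions. The 3 called higher were ATM at 0.69 (SE 0.15, edgeR adjusted p = 0.00653), NBN at 0.39 (SE 0.13, edgeR adjusted p = 0.0430) and FANCM at 0.34 (SE 0.14, edgeR adjusted p = 0.0964), and ATM alone of these was also called when any 1 library was left out. BRCA1, BRCA2, CHEK1 and FANCD2 differed by -1.14, -1.38, -0.68 and -0.98. ATR, at 0.23 (SE 0.18), and FANCE, at -0.10 (SE 0.17), were not called. The transfected and the selected cells also differed in route, selection and library make-up, which cannot be told apart from the knockdown itself.

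**Figure D3:**
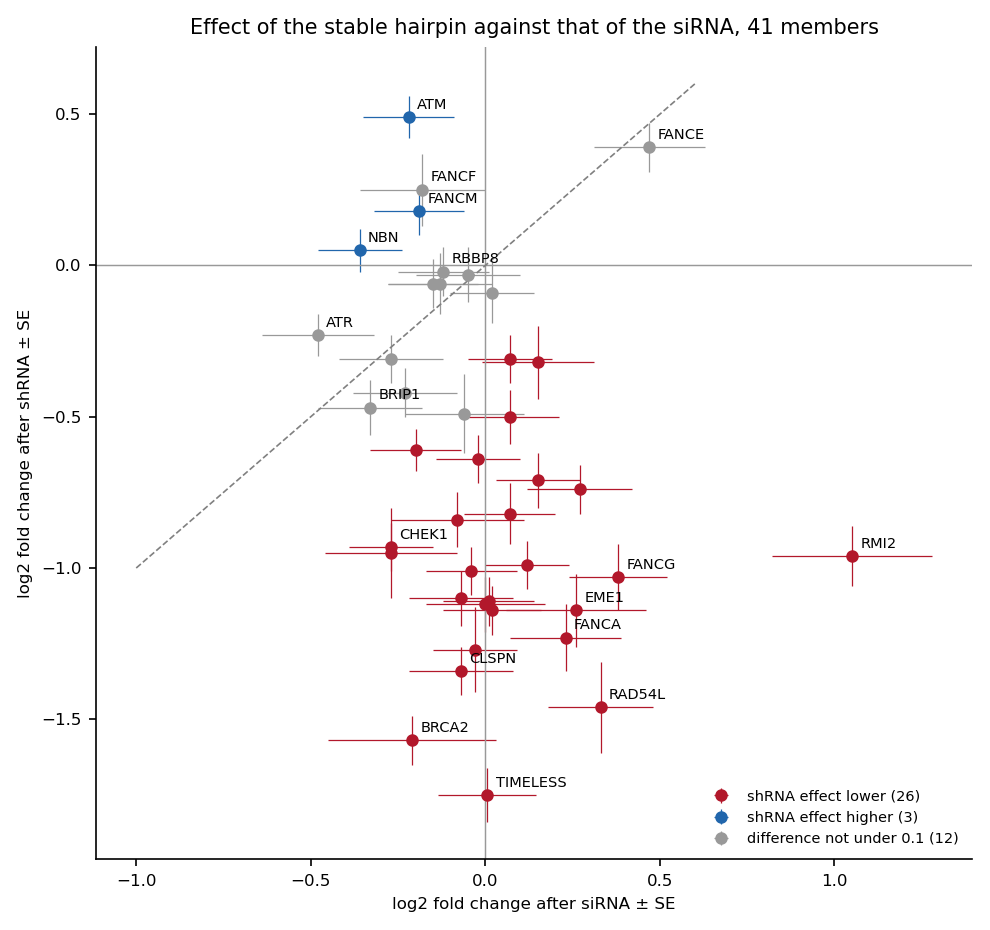
Log2 fold change after shRNA (vertical) against that after siRNA (horizontal), each with its SE, for the 41 members, with a dashed line where both effects are equal. The 26 red members lie below the line with a called difference, RMI2 farthest to the right at 1.05, and the 3 blue members, ATM, NBN and FANCM, lie above it.

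Other genes of the same pathways were counted from the same fits. Of all genes tested, 30.9% were called lower and 29.7% higher in shETS1 cells, and 3.41% were called after ETS1 siRNA. Of 33 other recombination and Fanconi genes, 17 fell and 4 rose in shETS1 cells, with a median of -0.22. RPA1, which coats single-stranded DNA, fell by 1.20 on the log2 scale, and BRE, a BRCA1-A complex subunit, rose by 1.33. Of 14 other checkpoint genes 8 fell and 3 rose (median -0.38), and the 3 with the lowest adjusted p were the histone gene H2AFX at -1.32, the phosphatase gene CDC25A at -1.10 and the kinase gene WEE1, which went from 55.2 ± 0.206 to 27.5 ± 1.02 CPM (SD, n = 2). Of 9 end joining genes tested, which act in the competing break repair pathway, 5 fell and 3 rose (median -0.23), with LIG4, the ligase, at 0.77, APLF, a scaffold protein, at 0.70 and PRKDC, the DNA-dependent kinase, at -0.76. The proliferation genes had a median of -1.09, and the 3 with the lowest adjusted p were PLK1 at -2.33, RRM2 at -1.79 and AURKB at -1.36. After ETS1 siRNA the proliferation genes held 1 call (PLK1, 0.58 higher on the log2 scale), and the other checkpoint and end joining genes held 0 by edgeR, of which 4 and 1 had an unadjusted p under 0.05.

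**Figure D4:**
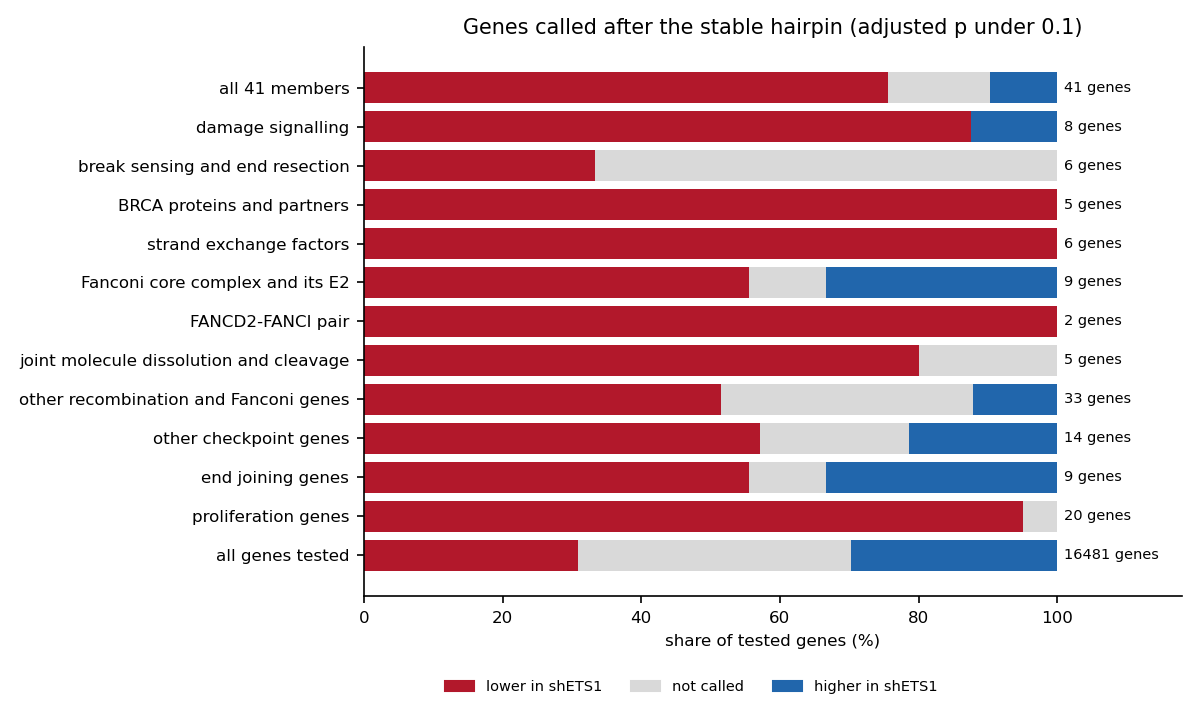
Share of tested genes called lower (red), not called (grey) and called higher (blue) in shETS1 cells, in percent, for the members, their role groups, other gene lists and all genes tested. The share called lower was 75.6% among the 41 members, 33.3% in the break sensing and end resection group and 30.9% among all 16481 genes.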

How the data were processed

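The authors prepared TruSeq RNA libraries, mapped single-end reads to GRCh37 with TopHat2 2.1.1 and Bowtie2 2.2.6, and counted reads per gene with featureCounts 1.5.0, per the submitters' processing notes. Strand use and the treatment of multiply mapped reads are not given in the sources used here. The values deposited by the authors were raw read counts per gene symbol, in a table for each knockdown. All per-sample columns were used, and groups came from the sample titles.

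Counts were tested with the two-sided quasi-likelihood test of edgeR 4.0.16 (R 4.3.3), with TMM scaling, filterByExpr and Benjamini-Hochberg adjustment over all genes tested, and called at an adjusted p under 0.1. Each knockdown was fitted on its own 4 libraries and the difference between them on all 8. CPM were scaled separately for the siRNA and the shRNA table, and their levels should not be compared across tables. Replicate counts differed beyond sampling noise in every group (chi-square per degree of freedom 7.00 to 25.7). The code was tested on simulated data.

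The members, role groups, other lists and tests were chosen with earlier results of these data known. Named genes were the called members with the largest rise and fall per role group and comparison, all called after siRNA, all not called after shRNA, the 3 largest differences in each direction, BRCA1, BRCA2, ATM, ATR, CHEK1, FANCD2 and ETS1, and up to 3 called genes per other list and comparison by adjusted p. Other members given with values were chosen after their values were seen. Gene lengths came from GENCODE v44 lifted to GRCh37, as the length of the canonical transcript. Promoters came from RefSeq (GRCh38.p14), where 5 members had no entry (NBN, DNA2, RAD54B, FANCI and RMI2). Alternatives were other scalings and filters, DESeq2 1.42.0, the replicate number as a block, a joint fit of the 8 libraries, a length offset, a threshold of 0.05 and each library left out. A gene that the naming rule covers is not reported here.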

Additional observations from a re-analysis of the deposited data

Results flagged for a closer look

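The effect of the knockdown differed between the stable hairpin and the siRNA for 29 of the 41 members, by the test of the difference itself (edgeR adjusted p under 0.1). Of all 17190 genes tested, 34.8% were called in that test, 19.7% lower and 15.1% higher. With the siRNA change subtracted from the shRNA change on the log2 scale, the difference was higher for ATM (0.69), NBN (0.39) and FANCM (0.34). It was lower for RMI2 (-2.03), RAD54L (-1.81), TIMELESS (-1.77), FANCA (-1.48), FANCG (-1.44), EME1 (-1.42), BRCA2 (-1.38), CLSPN (-1.29), RMI1 (-1.26), FANCI (-1.18), BRCA1 (-1.14), XRCC2 (-1.14), EXO1 (-1.13), BLM (-1.05), CHEK2 (-1.03), FANCD2 (-0.98), FANCC (-0.91), XRCC3 (-0.87), FANCB (-0.78), RAD54B (-0.70), CHEK1 (-0.68), UBE2T (-0.63), RAD51AP1 (-0.60), ATRIP (-0.49), TOPBP1 (-0.43) and PALB2 (-0.39). Of the higher differences, NBN and FANCM were not called with library size only, without a filter on low counts or with the replicate block. ATM was called under each of these. Of the 26 lower differences, 21 were also called under all 17 alternatives, and ATRIP, TOPBP1, PALB2, RAD51AP1 and RAD54B were lost under at least 1.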

How the results depend on the processing

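Of the 31 falls in shETS1 cells, 29 kept their direction and call under all 14 alternatives, and ATR and ATRIP lost the call under at least 1; of the 4 rises, ATM and FANCE kept it. The rises after shRNA went from 4 to 2 with library size only, without a filter on low counts, with DESeq2, with the replicate block, with all 8 libraries in one fit and at an adjusted p under 0.05, and ranged from 2 to 3 with a library left out. The median after shRNA was -0.83 with library size only, where the median of all genes tested was -0.12, and -0.76 to -0.66 with a library left out. After siRNA the 1 call (3.41% of all genes tested were called) became 3 without a filter (2 higher and 1 lower, 5.32% of all genes), 5 with all 8 libraries in one fit (3 higher and 2 lower, 12.6% of all genes), and 0 with the length offset and at an adjusted p under 0.05. With a library left out it ranged from 0 to 3, with 0 to 1 higher and 0 to 2 lower, beside 0.476% to 9.61% of all genes; without ETS1 siRNA replicate 1, ATR and BRCA2 were called lower. The siRNA median changed sign, from -0.04 to 0.01, with the length offset, where the replicate SD of that median was 0.154. The higher differences between the knockdowns went from 3 to 1 with library size only and without a filter, and ranged from 1 to 4 with a library left out. The cause of these changes was not tested.

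The labels give the replicates numbers but no shared day or batch. Across genes, the deviations of samples with the same number correlated at r -0.57 for siRNA and -0.13 for shRNA. Any difference between libraries enters this correlation, so that it cannot decide whether samples with the same number shared a day or batch. With the replicate block the siRNA calls went from 1 to 0, the higher calls after shRNA from 4 to 2 and the higher differences from 3 to 1. With the block and the length offset together the siRNA calls were 0, the siRNA median changed sign to 0.02 and the higher differences were 1. With the numbers crossed, a choice made after seeing the data, the siRNA calls were 7 (4 higher and 3 lower, beside 22.0% of all genes tested), those after shRNA 35 (66.3%) and the differences 31 (43.4%). With 2 libraries per group, member changes after siRNA as large as -0.48 (ATR) and 0.47 (FANCE) were not called.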
